A study of Mus musculus with 6 samples.

Results

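The lysosomal genes described here are a list of 38 genes for lysosomal proteases, other hydrolases, membrane proteins and a regulator. They were chosen by name, and 37 of the 38 were measured among 22180 genes. The exception was Glb1, whose probe set is annotated to more than 1 gene. Gene expression was measured in liver from 6 male C57BL/6J mice, 1 Affymetrix whole-transcript array per mouse. The HKO group (3 mice, genotype SlugHKO) came from a cross of floxed Slug with albumin-CreERT2, an inducible Cre recombinase under the albumin promoter, which is active in hepatocytes. The Con group (3 mice, genotype Slug f/f) were their littermates. From 8 weeks of age all mice ate a diet in which fat gave 60% of the calories, for 11 weeks. The labels used here do not state whether Con mice carried the Cre, or how and when it was activated. Liver macrophages are not albumin-expressing cells, so the cross is not designed to remove Slug from them.

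Lysosomes are acidic compartments that break down proteins, glycans, lipids and nucleic acids delivered by endocytosis, phagocytosis and autophagy. Every cell has them, and in liver both hepatocytes and the resident macrophages, Kupffer cells, are rich in them. Some lysosomal proteins, such as cathepsin S and CD68, are made mainly by macrophages and other antigen-presenting cells, while most hydrolases are made by nearly all cells. The members were therefore split into 7 macrophage-rich genes (Cd68, Ctss, Ctsc, Ctsk, Ctse, Acp5 and Ctsz) and 30 ubiquitous ones. In bulk liver, fewer cells of a type and less RNA per cell cannot be told apart.

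Values are log2 values after RMA, a method that corrects background, equalises the arrays' distributions and reduces each probe set to a single value. Differences are given as HKO minus Con in log2 units, so a negative value means lower in HKO. The median over genes was 3.95 on every array, and a gene whose group mean lies below the median over genes is not shown to be above background. Snai2, the gene for Slug, had values of 4.62, 5.23 and 5.69 in HKO, against 7.74, 7.69 and 7.39 in Con, a difference of -2.43 ± 0.25 (SE; limma adjusted p = 0.0145; exact two-sided permutation p = 0.1, the smallest that 3 against 3 arrays allow). That call was lost in 5 alternative analyses, among them the fits without HKO replicate 2, Con replicate 1 or Con replicate 2. The tissue label fits the levels of its markers. The 8 hepatocyte markers, albumin among them, had a mean level of 10.65 to 10.86 per array, against 4.46 to 4.47 over all genes. Kupffer cell, stellate cell and sinusoidal endothelial markers, all above the median level too, had mean levels of at most 7.42. Arrays of the same group correlated at 0.989 to 0.992 and arrays of different groups at 0.986 to 0.988.

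Most lysosomal transcripts in HKO livers lay close to those in Con livers, and the differences that stood out leaned to lower values in HKO. The genes with the clearest differences were the glycosidases Gusb and Hexa, the sulfatase Arsa, the macrophage-rich Cd68 and Ctss, and the proteases Ctsd and Lgmn. None passed the test over all genes. Of the 37 members, 0 had a limma adjusted p under 0.05, where 0.203% of all 22180 genes did (45 genes, 20 higher and 25 lower in HKO). The lowest adjusted p among the members was 0.153, for Gusb, so 0 members passed 0.1 either, where 0.518% of all genes did. With only genes above the median level tested, 0 of 35 members passed 0.05, where 1.24% of those genes did, and Gusb had an adjusted p of 0.0624. At an unadjusted p under 0.05, 7 members were lower in HKO and 0 were higher, or 18.9% of the members lower, where 6.56% of all genes were lower and 5.31% higher. Among the genes above the median level, where 35 of the 37 members lie, 9.6% were lower by that rule.

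In HKO, 27 of the 37 members (73%) had a lower mean and 10 a higher one, where 51.8% of all genes had a lower mean. HKO and Con values did not overlap for 11 members. In 9 of them (24.3%) every HKO array was below every Con array, against 10.1% of all genes and 15.3% of those above the median level. The 9 were Ctss, Ctsl, Ctsd, Ctse, Gusb, Hexa, Arsa, Cd68 and Lamp1. In 2, Ctsf and Ctsh, every HKO array was above every Con array, against 8.05% of all genes. The median difference was -0.092 over all 37 members, -0.24 over the macrophage-rich ones and -0.0504 over the ubiquitous ones, where the median over all genes was -0.00808. With only genes above the median level, these medians were -0.0943, -0.322 and -0.0698, where the median over all genes kept was -0.0324. In size, 30 of the 37 members differed by less than 0.25 log2 units.

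**Figure D1:**
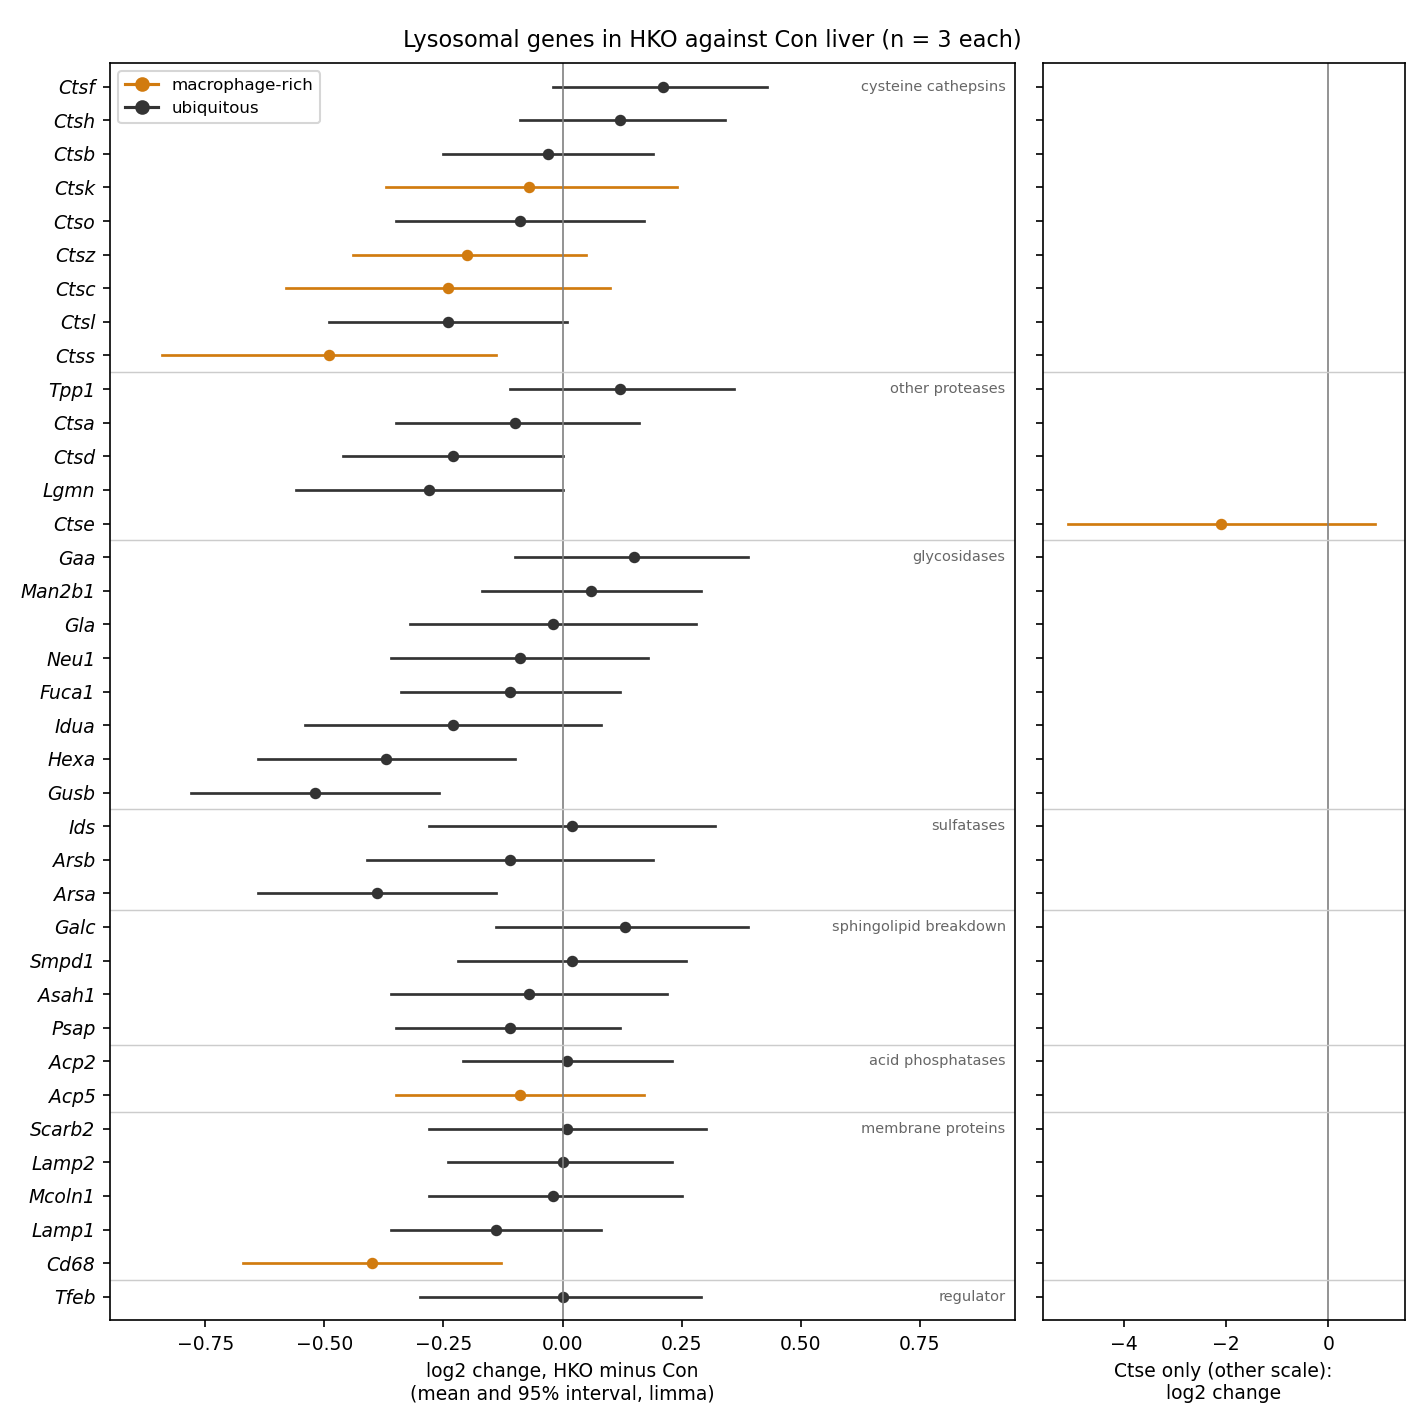
Difference of each measured lysosomal gene (log2 units, HKO minus Con, 3 arrays each), grouped by role from top to bottom; points are the mean difference and bars limma's 95% interval, in orange for macrophage-rich and in black for ubiquitous genes. Ctse is drawn on its own, wider axis at the right, and the intervals of Ctss, Cd68, Gusb, Hexa and Arsa lie clear of 0, while those of Ctsd and Lgmn end close to it.

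The cysteine cathepsins, papain-family proteases that do much of the protein breakdown in lysosomes, went both ways. Of 9 measured, 7 had lower and 2 higher means in HKO, and 0 passed. Cathepsin S (Ctss), an endopeptidase of antigen-presenting cells that trims the invariant chain of MHC class II, had values of 7.86, 7.88 and 7.54 in HKO, against 8.38, 8.39 and 7.97 in Con. The groups did not overlap, and in each group the third replicate was the lowest. The difference was -0.49 ± 0.15 (SE; limma adjusted p = 0.287), or 1.40-fold lower. Cathepsin L (Ctsl), a broad endopeptidase of most cells, had values of 9.17, 9.10 and 9.02 in HKO, against 9.43, 9.39 and 9.18 in Con. Here HKO replicate 1 and Con replicate 3 nearly met, at 9.17 and 9.18, and the difference was -0.24 ± 0.11 (limma adjusted p = 0.451).

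Cathepsin C (Ctsc), a dipeptidyl peptidase that activates the granule proteases of immune cells, had values of 8.50, 8.19 and 8.00 in HKO, against 8.53, 8.56 and 8.31 in Con. HKO replicate 1 lay within the Con range and the other HKO arrays below it, and the difference was -0.24 ± 0.15 (limma adjusted p = 0.585). Cathepsin Z (Ctsz), a carboxypeptidase abundant in monocytes and macrophages, had values of 8.84, 8.93 and 9.04 in HKO, against 9.03, 9.14 and 9.22 in Con. The groups overlapped between HKO replicate 3 and Con replicate 1, and the difference was -0.20 ± 0.11 (limma adjusted p = 0.527). Cathepsin K (Ctsk), the collagenase of osteoclasts, had values between 2.35 and 2.70 in HKO, against 2.39 to 2.67 in Con, so it was not shown to be above background in either group.

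Cathepsins F and H were the members with every HKO array above Con. Ctsf, a ubiquitous endopeptidase, had values of 5.93, 5.93 and 5.85 in HKO, against 5.60, 5.76 and 5.75 in Con, a difference of 0.21 ± 0.10 (limma adjusted p = 0.474). Ctsh, an aminopeptidase, had values of 9.84, 9.83 and 9.80 in HKO, against 9.65, 9.69 and 9.76 in Con, a difference of 0.12 ± 0.09 (limma adjusted p = 0.663). Neither passed, although the groups were apart in both. Ctsb, a major cathepsin of hepatocytes, stood at -0.03, with a 95% interval from -0.25 to 0.19, and Ctso at -0.09, from -0.35 to 0.17.

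Cathepsin E (Ctse), an aspartic protease found in endosomes of immune and epithelial cells, had the most unusual values of the list. It was at 3.95 in HKO replicate 1, against 9.69 in HKO replicate 2 and 9.47 in HKO replicate 3, and at 9.76, 9.84 and 9.80 in Con. HKO replicate 1 thus lay at that array's median over genes, while the other 5 arrays lay within a narrow band far above it. The difference over all arrays, -2.10 ± 1.31 (limma adjusted p = 0.590), rests on that array, and without it the difference was -0.22 (limma adjusted p = 0.527). The HKO mean was 9.58 without replicate 1, against a Con mean of 9.80. That Con mean was above those of all 10 Kupffer cell and general macrophage markers, of which C1qb was the highest at 8.37. Which cells gave the Ctse signal was not tested, so its place among the macrophage-rich genes is by name only.

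The distance of 5.52 log2 units between HKO replicate 1 and the nearest other array was the largest that any 1 array showed for any of the 22180 genes. The next were 2.16 for Ubd in HKO replicate 2 and 1.96 for Cidec in HKO replicate 1. Among the other members the largest such distance was 0.31, for Ctss. HKO replicate 1 did not stand apart in general, with 13 genes more than 1 log2 unit from the other 5 arrays, against 22 in HKO replicate 2 and 5 in HKO replicate 3. Con arrays had 1 to 3 such genes each. Ctse lies on chromosome 1, and none of its 10 nearest measured neighbours behaved as it did. HKO replicate 1 was outside the range of the other arrays for 4 of the 10, by at most 0.25. Ctse has 1 probe set, so no second probe set on these arrays tests the reading.

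**Figure D2:**
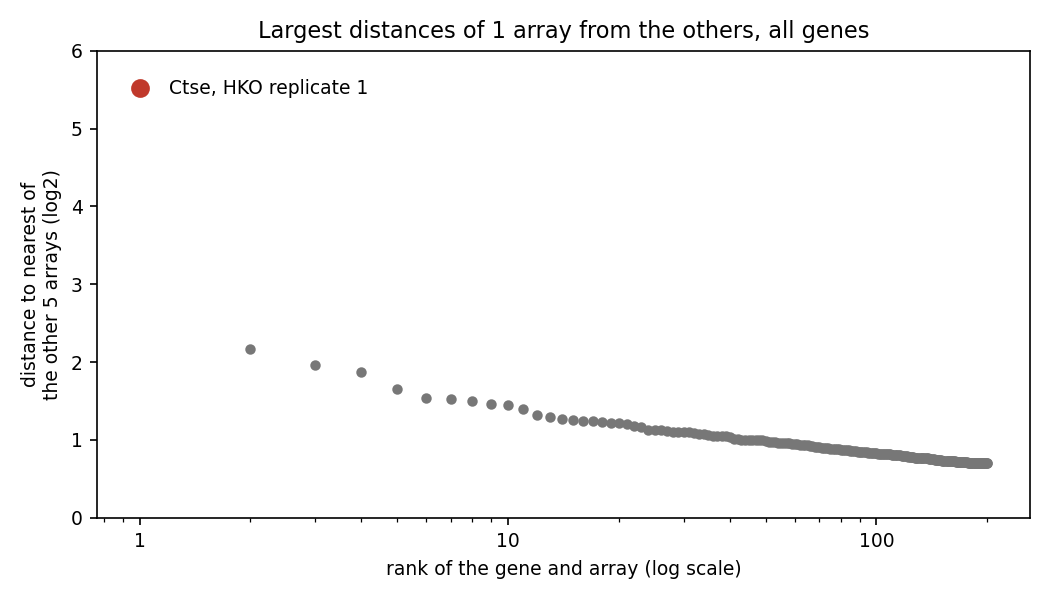
Distance (log2 units) between the array farthest from the rest and the nearest of the other 5, for the gene and array pairs with the largest distances among all 22180 genes, by rank on a log axis. Ctse in HKO replicate 1 (red) is at 5.52 and the next pair is at 2.16.

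Among the other proteases, cathepsin D (Ctsd), the main aspartic protease of lysosomes, had values of 9.48, 9.64 and 9.60 in HKO, against 9.79, 9.89 and 9.75 in Con. The groups did not overlap, and the difference was -0.23 ± 0.10 (limma adjusted p = 0.420). Legumain (Lgmn), an asparagine-specific endopeptidase that also processes cathepsins, had values of 7.86, 7.93 and 8.01 in HKO, against 8.28, 8.36 and 8.01 in Con. Con replicate 3 met HKO replicate 3 at 8.01, and the other Con arrays were higher, for a difference of -0.28 ± 0.12 (limma adjusted p = 0.420). Ctsa, the protective protein of the sialidase complex, stood at -0.10, and Tpp1, a tripeptidyl peptidase, at 0.12, both with overlapping groups.

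The glycosidases take sugars off glycoproteins, glycolipids and glycosaminoglycans. Of 8 measured, 6 had lower and 2 higher means in HKO, and 0 passed. Beta-glucuronidase (Gusb), which removes glucuronic acid from glycosaminoglycans and is often used as a reference gene, had values of 6.30, 6.36 and 6.62 in HKO, against 6.94, 6.96 and 6.94 in Con. The Con arrays were almost identical (6.95 ± 0.01, SD, n = 3), and every HKO array was lower and more scattered (6.43 ± 0.17). The difference was -0.52 ± 0.11 (SE; limma adjusted p = 0.153), or 1.43-fold lower. Leaving out 1 array at a time kept it between -0.618 and -0.455. When limma's variance was fitted as a trend on level, Gusb fell with an adjusted p of 0.0443, the sole member called there, where 0.969% of all genes were called and 0.518% were called lower.

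Hexa, the alpha subunit of beta-hexosaminidase that degrades GM2 ganglioside, had values of 6.88, 7.13 and 7.14 in HKO, against 7.50, 7.31 and 7.45 in Con. All HKO arrays were below all Con arrays, by -0.37 ± 0.12 on average (limma adjusted p = 0.288). Idua, which removes iduronic acid from glycosaminoglycans, stood at -0.23 ± 0.14 with overlapping groups. Gaa, the glycogen-degrading acid alpha-glucosidase, was at 0.15 and the mannosidase Man2b1 at 0.06, the 2 with higher means. The galactosidase Gla (-0.02), the fucosidase Fuca1 (-0.11) and the sialidase Neu1 (-0.09) had groups that overlapped.

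Arylsulfatase A (Arsa), which removes sulfate from the myelin lipid sulfatide, had values of 7.03, 6.84 and 6.82 in HKO, against 7.18, 7.32 and 7.37 in Con. The groups did not overlap, and the difference was -0.39 ± 0.11 (SE; limma adjusted p = 0.243), or 1.31-fold lower. It ran from -0.456 to -0.351 when 1 array at a time was left out. The sulfatases of glycosaminoglycans, Arsb (-0.11) and Ids (0.02), had overlapping groups. The second, dim probe set of Arsb, with a mean level of 2.21, stood at 0.11.

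Genes of sphingolipid breakdown lay close to 0. The acid ceramidase Asah1 stood at -0.07, the acid sphingomyelinase Smpd1 at 0.02, the activator precursor Psap at -0.11 and the galactosylceramidase Galc at 0.13. All 4 had overlapping groups, and their 95% intervals reached at most -0.36 on the lower side and 0.39 on the higher side. A second probe set of Smpd1 was at 0.12. The acid phosphatases did not differ beyond the spread between arrays either: Acp2, of most cells, stood at 0.01. Acp5, the tartrate-resistant phosphatase of osteoclasts and macrophages, had values of 7.94, 8.14 and 7.93 in HKO, against 7.97, 8.20 and 8.11 in Con (-0.09 ± 0.11; limma adjusted p = 0.802).

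**Figure D3:**
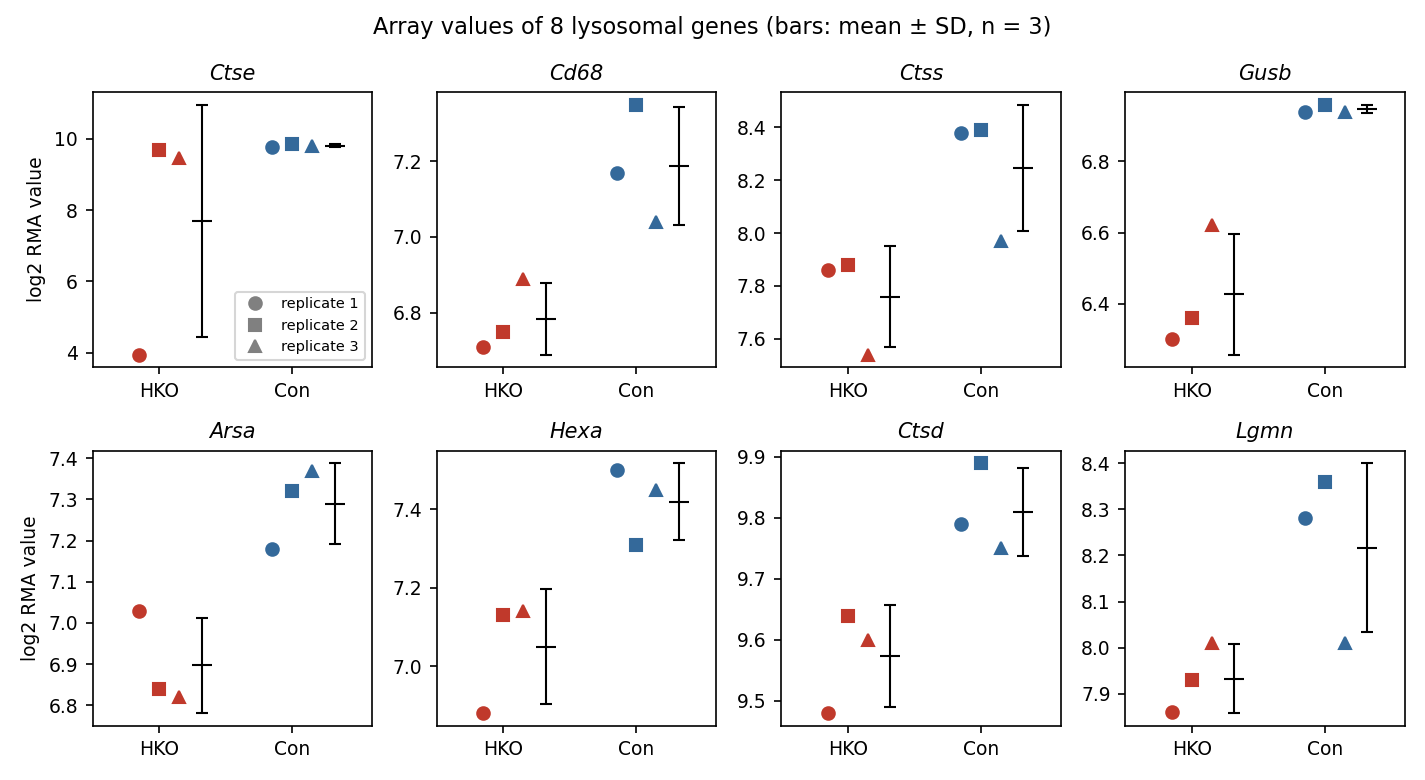
Values (log2 RMA) of 8 lysosomal genes in each array, HKO at the left in red and Con at the right in blue, with the mean ± SD (n = 3) beside the points; the vertical scales differ between panels and do not start at 0. In Ctse 1 HKO array is at 3.95 and all other arrays are above 9, while Gusb, Arsa, Hexa and Ctsd are lower in each HKO array than in any Con array.

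Of 5 membrane proteins, 4 had lower and 1 a higher mean in HKO, and 0 passed. CD68 (Cd68), a heavily glycosylated protein of macrophage lysosomes, had values of 6.71, 6.75 and 6.89 in HKO, against 7.17, 7.35 and 7.04 in Con. No HKO array reached a Con array, and the difference was -0.40 ± 0.12 (SE; limma adjusted p = 0.259), or 1.32-fold lower. Lamp1, the main glycoprotein of the lysosomal membrane in all cells, had values of 9.96, 9.95 and 9.93 in HKO, against 10.18, 10.03 and 10.05 in Con. It did not overlap either, but the difference was smaller, -0.14 ± 0.10 (limma adjusted p = 0.632). Lamp2, its relative needed for fusion with autophagosomes and for chaperone-mediated autophagy, had values of 10.02, 9.84 and 9.93 in HKO, against 9.96, 9.85 and 9.99 in Con. The Lamp2 means were equal at 9.93, with a 95% interval of the difference from -0.24 to 0.23.

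Mcoln1, the calcium channel TRPML1, had values of 7.20, 7.26 and 7.31 in HKO, against 7.10, 7.29 and 7.43 in Con, and all HKO arrays lay inside the Con range. The interval of its difference ran from -0.28 to 0.25. Scarb2, the receptor that carries glucocerebrosidase to lysosomes, stood at 0.01. Tfeb, the transcription factor that switches on many lysosomal genes and is controlled mostly by phosphorylation and location rather than by transcript level, had values of 3.68, 3.77 and 3.44 in HKO, against 3.60, 3.51 and 3.80 in Con. Both groups averaged 3.63, below the median over genes, so Tfeb was not shown to be above background.

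TFEB is known to bind an element whose core is an E-box preceded by T, and Slug is known to bind another E-box, so the members' promoters were searched for both. Promoters were 250 bases before to 50 after the gene's start, from RefSeq on GRCm38.p6, and 33 of the 37 measured members had an entry. The letters TCACGTG, on either strand, were in 6 of the 33 (18.2%), against 3.84% of all 27025 promoters. The shorter CACGTG, which includes them, was in 8 of the 33 (24.2%), against 7.24% of all. The Slug E-box CAGGTG, on either strand, was in 6 of the 33 (18.2%), against 20% of all. These counts describe letters in a window and not binding.

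The 6 genes with TCACGTG were Arsa (-0.39), Ctsd (-0.23), Lamp1 (-0.14), Gla (-0.02), Mcoln1 (-0.02) and Gaa (0.15), with the log2 difference in brackets. None of the 6 passed the test, and their means lay on both sides of 0. The promoters of the 4 with the lowest limma p are printed to show where the element lies. TCACGTG or its reverse complement CACGTGA is in capitals, 5′ to 3′ on the gene's strand. Gla and Mcoln1, not printed, each hold the element at 2 places. Lamp1 holds it at 4 places, the nearest starting 16 bases before the start, and Ctsd at 2 places, where a longer run of capitals is an overlap of both strands' matches. Arsa holds it once, 17 bases before the start, and Gaa once, 141 bases before it, together with cacctg, the reverse complement of CAGGTG, left in lower case. The windows are chr8:13158911-13159210 on the plus strand for Lamp1, chr7:142387778-142388077 on the minus strand for Ctsd, chr15:89477375-89477674 on the minus strand for Arsa and chr11:119267713-119268012 on the plus strand for Gaa.
Lamp1: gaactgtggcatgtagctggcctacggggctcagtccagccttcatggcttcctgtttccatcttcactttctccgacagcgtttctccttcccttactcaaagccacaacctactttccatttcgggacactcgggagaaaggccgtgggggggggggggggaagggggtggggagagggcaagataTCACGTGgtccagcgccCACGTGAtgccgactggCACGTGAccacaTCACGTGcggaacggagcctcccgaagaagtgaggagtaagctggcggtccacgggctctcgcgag
Ctsd: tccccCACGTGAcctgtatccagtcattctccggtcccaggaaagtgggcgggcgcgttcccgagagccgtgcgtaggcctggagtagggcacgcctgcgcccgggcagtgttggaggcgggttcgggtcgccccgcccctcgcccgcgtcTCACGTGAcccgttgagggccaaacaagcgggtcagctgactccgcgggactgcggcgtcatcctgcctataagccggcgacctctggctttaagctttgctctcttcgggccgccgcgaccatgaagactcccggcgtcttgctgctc
Arsa: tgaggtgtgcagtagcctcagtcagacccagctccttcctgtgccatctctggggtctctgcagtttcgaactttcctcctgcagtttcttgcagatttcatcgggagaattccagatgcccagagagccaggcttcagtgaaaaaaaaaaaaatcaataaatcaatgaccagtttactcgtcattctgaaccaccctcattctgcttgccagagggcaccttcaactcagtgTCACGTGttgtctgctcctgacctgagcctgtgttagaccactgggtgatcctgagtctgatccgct
Gaa: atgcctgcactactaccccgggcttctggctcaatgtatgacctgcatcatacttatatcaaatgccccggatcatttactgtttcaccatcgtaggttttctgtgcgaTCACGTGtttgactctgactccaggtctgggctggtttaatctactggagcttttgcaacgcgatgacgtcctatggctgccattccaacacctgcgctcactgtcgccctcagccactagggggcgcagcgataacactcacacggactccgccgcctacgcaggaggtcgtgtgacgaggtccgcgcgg

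The 7 macrophage-rich genes all had lower means in HKO, where 51.8% of all genes did, and 0 passed over all genes. Of the 7, Ctsk was not shown to be above background. At an unadjusted p under 0.05, 2 (Cd68 and Ctss, 28.6%) were lower, against 6.56% of all genes and 9.6% of those above the median level. By array, the median deviation of these 7 from the Con mean was -0.30, -0.20 and -0.30 in HKO, against -0.02, 0.10 and 0.00 in Con. Without Ctse it was -0.22, -0.24 and -0.23 in HKO, against 0.02, 0.10 and -0.06 in Con. The HKO arrays were thus close to each other and below all Con arrays with and without Ctse. For the 30 ubiquitous genes the array medians were -0.04, -0.03 and -0.08 in HKO, against -0.04, 0.02 and 0.02 in Con, and Con replicate 1 equalled HKO replicate 1. The difference between the macrophage-rich and the ubiquitous genes was not tested.

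**Figure D4:**
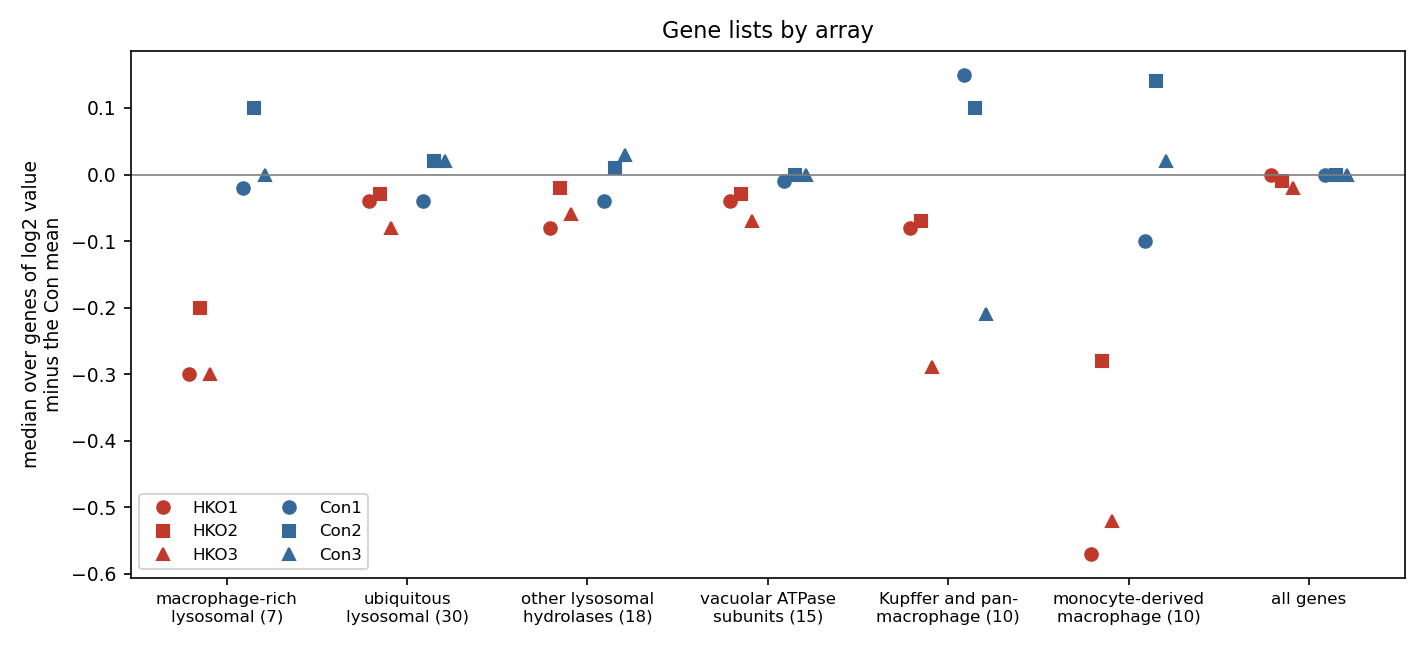
Median over the genes of a list of the log2 value minus the gene's Con mean, for each array (HKO red and at the left, Con blue and at the right; the number of measured genes is in brackets). The macrophage-rich lysosomal genes and the monocyte-derived macrophage markers have each of the 3 HKO points below every Con point, while the ubiquitous lysosomal genes lie near 0 and the Kupffer markers of the groups overlap.

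Some macrophage markers were lower as well. All 10 measured markers of macrophages derived from monocytes or associated with lipid had lower means in HKO, 1 of them past adjusted p 0.05 (Itgax, an integrin of recruited macrophages and dendritic cells, with a mean of 3.42 in HKO, which is below the median over genes, against 4.44 in Con; limma adjusted p = 0.0280). The Itgax call was lost in 8 of 16 alternatives, among them each fit with 1 array left out (limma adjusted p up to 0.149 there). At an unadjusted p under 0.05, 5 of the 10 (50%) were lower, against 6.56% of all genes. These were Itgax, Gpnmb, Mmp12, Ccr2 and Cx3cr1. Group means were below the median over genes for Ccr2 in both groups and for Gpnmb in HKO. Itgax, Gpnmb and Mmp12 were lower in every HKO array (30% of the list), against 10.1% of all genes. The summed level of the 10 markers, on the linear scale, was 299.7 to 412.9 in HKO, against 449.8 to 488.9 in Con, and 3 of the 10 (Itgax among them) had a mean over all arrays below the median over genes. Of 10 Kupffer cell and general macrophage markers, 7 had lower and 3 higher means in HKO and 0 passed. Their summed level was 1317 to 1511 in HKO, against 1326 to 1692 in Con, so the groups overlapped, and 0 of the 10 lay below the median over genes. The 7 with lower means were Marco (-0.54), C1qa (-0.47), Cd5l (-0.39), C1qc (-0.24), Adgre1 (-0.23), Csf1r (-0.06) and C1qb (-0.06), and the 3 with higher means were Clec4f (0.20), Timd4 (0.12) and Vsig4 (0.04). C1qa, a complement subunit made by macrophages, had values of 6.67, 6.60 and 6.27 in HKO, against 7.07, 7.09 and 6.78 in Con. As with Ctss and Ctsc, the third replicate was the lowest in each group, while for Ctsz it was the highest in each. For Cd68 it was the highest in HKO and the lowest in Con. The part of macrophage content in the differences of Cd68, Ctss and the other macrophage-rich genes was not tested.

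Markers of other immune cells were weaker guides, since many were dim. All neutrophil markers but 1 and 6 of the 8 B and T cell markers lay below the median over genes. None of the 5 neutrophil, 8 B and T cell and 6 dendritic cell markers passed in limma. At an unadjusted p under 0.05, 2 neutrophil markers (40%) were lower, against 6.56% of all genes. They were S100a8 and Cxcr2, both not shown to be above background. The B and T cell list and the dendritic cell list each had 0 at that threshold. Stellate cell markers, whose member Col1a2 fell by 0.98 log2 units (limma adjusted p = 0.0415) in a call lost in 9 of 17 alternatives, had array medians of -0.69, -0.36 and -0.42 in HKO, against -0.13, 0.04 and 0.14 in Con. Each fit with 1 array left out lost the Col1a2 call (limma adjusted p of 0.0758 to 0.176), and the mean of its probe sets stood at -0.58. Of the 8 stellate cell markers, 6 had lower and 2 higher means. At an unadjusted p under 0.05, 5 of the 8 (62.5%) were lower, against 6.56% of all genes and 9.6% of those above the median level. Every HKO array was below every Con array for 5 (62.5%), against 10.1% of all genes and 15.3% of those above the median level. Of 6 sinusoidal endothelial markers 3 had lower and 3 higher means and 0 passed in limma. At an unadjusted p under 0.05, 2 (33.3%) were lower, against 6.56% of all genes and 9.6% of those above the median level. The 2 were Pecam1 (-0.29), lower in every HKO array, and Lyve1 (-0.57), which overlapped. Of 8 hepatocyte markers 3 had lower and 5 higher means and 0 passed in limma. At an unadjusted p under 0.05, 2 were higher, Serpina1a (0.40) and Cps1 (0.27), where 5.31% of all genes were higher. Both were higher in every HKO array (25% of the list), against 8.05% of all genes. The 4 cholangiocyte markers gave 0 at an unadjusted p under 0.05, and Krt7 and Krt19 were not shown to be above background. The part of any of these cells in the lysosomal values was not tested.

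Other genes of the lysosome gave few calls in limma. The share lower in every HKO array, 24.3% for the members, was 22.2% of 18 other hydrolases and activators. For 19 other membrane proteins and transporters it was 21.1%, against 10.1% of all genes and 15.3% of those above the median level. Of the 18 hydrolases and activators, 10 had lower and 8 higher means in HKO and 0 passed in limma. At an unadjusted p under 0.05, 1 (5.56%) was lower, against 6.56% of all genes. That was Lipa, the acid lipase that frees cholesterol and fatty acids from lipoprotein lipids, with values of 9.90, 9.84 and 9.98 in HKO, against 10.11, 10.14 and 10.22 in Con (-0.25 ± 0.10; limma adjusted p = 0.377). Naaa, which hydrolyses N-acylethanolamines, stood at -0.26 ± 0.12 with no overlap. Of the 19 membrane proteins and transporters 0 passed, with Cln3 at -0.31 and the cholesterol transporter Npc1 at 0.34, the 2 at an unadjusted p under 0.05. The 1 lower gene is 5.26% of that list, where 6.56% of all genes were lower and 5.31% higher.

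The vacuolar ATPase acidifies the lysosome. Of its 15 measured subunits, 12 (80%) had lower and 3 higher means in HKO and 0 passed. Over all genes 51.8% had a lower mean. At an unadjusted p under 0.05, 1 (6.67%) was lower and 2 were higher, where 6.56% of all genes were lower and 5.31% higher. Every HKO array was below every Con array for 5 (33.3%), against 10.1% of all genes and 15.3% of those above the median level. Every HKO array was above every Con array for 2 (13.3%), against 8.05% of all genes. Atp6v0d2, a subunit isoform of osteoclasts, macrophages and kidney, had values of 5.08, 5.25 and 5.57 in HKO, against 4.54, 4.28 and 4.52 in Con. It was higher in every HKO array, by 0.85 ± 0.15 (limma adjusted p = 0.0848), while Cd68 and Ctss were lower. The part of macrophages in this difference was not tested. Atp6v1c1, a subunit of the catalytic part, stood at -0.29 ± 0.11.

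Of 13 genes that sort enzymes to lysosomes, Sort1, a sorting receptor for lysosomal proteins and lipoproteins, rose by 1.09 ± 0.13 (limma adjusted p = 0.0249) and the other 12 did not pass. Its values were 6.78, 6.69 and 6.70 in HKO, against 5.46, 5.56 and 5.87 in Con, with no overlap. The call was lost in 8 of 17 alternatives, with a limma adjusted p of 0.0800 with a replicate block and 0.0730 to 0.149 without HKO replicate 1, 2 or 3 or Con replicate 1 or 2. With the mean of its probe sets Sort1 stood at 0.655 (limma adjusted p = 0.106). Of the 13 sorting genes, 3 (23.1%) were lower and 2 (15.4%) higher in every HKO array, against 10.1% and 8.05% of all genes. Of 19 relatives of Tfeb, lysosomal mTORC1 components and autophagy genes, 0 passed in limma. At an unadjusted p under 0.05, 2 (10.5%) were lower and 3 higher, where 6.56% of all genes were lower and 5.31% higher. Every HKO array was below every Con array for 4 (21.1%) and above for 2 (10.5%), against 10.1% and 8.05% of all genes. Tfec, a relative of Tfeb in macrophages, had values of 4.52, 4.57 and 3.92 in HKO, against 4.87, 5.16 and 4.82 in Con, a difference of -0.61 ± 0.19 (limma adjusted p = 0.278). Lamtor1, which anchors mTORC1 signalling to the lysosome, stood at -0.36 ± 0.11. Both were lower in every HKO array than in any Con array.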

How the data were processed

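Liver RNA of 6 mice (3 HKO, 3 Con; 400 ng each, per the labels) was measured on 1 array each. The authors deposited log2 values, and the submitters' processing notes name RMA and R 3.3.0. Filters and a genome build for the array design were not given in the sources used here. RMA compresses differences of dim genes. Arrays have no read depth, and their number limits the precision.

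Among 41345 probe sets, 23521 had 1 gene in the platform annotation, 1814 several and 16010 none. By Entrez identifier, 23328 were found in RefSeq (GRCm38.p6), which altered 0 symbols. Each of 22180 genes was represented by its brightest probe set (mean over 6 arrays), with no filter on low values. HKO and Con were compared with limma 3.58.1 in R 4.3.3 (lmFit, eBayes, group only) by two-sided tests, and p-values were adjusted by Benjamini-Hochberg across the 22180 genes. The pipeline was tested on simulated data. Figures used matplotlib 3.10.9.

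The members and lists were chosen with earlier results of these data known, so members got no set test and no adjustment over the list alone. Array values are given for macrophage-rich members, members at an unadjusted p under 0.05 or without overlap, and Lamp1, Lamp2, Tfeb and Mcoln1. Other lists are named by members past the threshold or the 2 with the lowest p. The groups by role were chosen after the values were seen. Alternatives covered scaling, filters, probe sets, variance models, a replicate block, thresholds, the macrophage-rich list and leaving out each array.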

Additional observations from a re-analysis of the deposited data

How the results depend on the processing

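The 45 genes called over all genes became 138 with only genes above the median level, 215 with a variance trend, 0 without shared variance (limma; 2422 at an unadjusted p under 0.05) and 3 in the fit with a replicate block. Leaving out 1 array gave 4 to 32 calls. With HKO replicates 1, 2 and 3 left out they were 25, 6 and 16, and with Con replicates 1, 2 and 3 left out 5, 4 and 32. Same-numbered arrays deviated together only weakly (correlations of 0.032, 0.016 and 0.021), against -0.027 to 0.006 for arrays with different numbers. Correlations this small, from 3 arrays per group, cannot tell whether the numbers pair the mice. Lysosomal genes called were 1 with the variance trend (Gusb) and 0 otherwise. Snai2 stayed at -2.43 without shared variance (adjusted p = 0.234) and with the block (limma adjusted p = 0.0540). It ran from -2.69 to -2.15 with 1 array left out, with limma adjusted p-values of 0.0621 when HKO replicate 2 was dropped, 0.0758 for Con replicate 1 and 0.0927 for Con replicate 2. The macrophage-rich median was -0.322 under both level filters, which drop Ctsk, and -0.320 to -0.192 with 1 array left out, where the ubiquitous median was -0.0964 to -0.0238. Of 626 gene values under alternatives, 598 kept direction and side of the threshold, 27 changed sign and 1 passed; 25 genes never changed sign. Signs turned for Lamp2 (0.0249) and Gla (0.00794) after a second quantile normalization, for Lamp2 (0.0013) after centring and for Tfeb (0.0147) with array weights. With 1 array left out, the ranges of genes that changed sign were -0.0113 to 0.0478 for Acp2, -0.176 to 0.0376 for Asah1, -0.0574 to 0.00444 for Ctsb, -0.172 to 0.00208 for Ctsk, -0.148 to 0.00512 for Ctso, -0.103 to 0.0758 for Gla, -0.0778 to 0.0885 for Ids, -0.0457 to 0.0445 for Lamp2, -0.101 to 0.0593 for Mcoln1, -0.0899 to 0.0974 for Scarb2, -0.0273 to 0.08 for Smpd1 and -0.0756 to 0.0917 for Tfeb. Apart from the filters, the cause was not tested. Ctsk and Tfeb are limited by signal below the median over genes.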
